A study of Homo sapiens with 18 samples.

Results

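FOXA1, HOXB13, GRHL2, GATA2 and GATA3 encode transcription factors that set prostate epithelial identity and shape where the androgen receptor binds, and they are described here through the histone marks at their genes. The 5 genes were chosen by name, out of 19675 protein-coding genes placed on GRCh38, and the gene of the androgen receptor itself is not among them. Each was described from 20 kb upstream of its outermost annotated start to its end, where 36 of the 175231 regions formed by merging the deposited peaks lay, 22 with H3K4me3 and 14 with H3K27me3.

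The cells were V16D, an established castration-resistant prostate cancer line that derives from LNCaP. They carried a control lentivector (V16D/CTL) or one that overexpresses the long non-coding RNA H19 from a CMV promoter (V16D/H19), and the comparison asks whether H19 overexpression goes with other histone methylation. Each group had 3 biological replicates, each with an H3K4me3, an H3K27me3 and an input library by chromatin immunoprecipitation sequencing. The deposited lists held 20048 to 21934 H3K4me3 peaks and 55060 to 72289 H3K27me3 peaks per library.

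H3K4me3 marks the starts of genes that are active or ready to be transcribed, and very wide H3K4me3 domains are known at genes that define a cell type. H3K27me3 is laid down by the Polycomb repressive complex with EZH2 and covers silent developmental genes, and a promoter that carries both marks is called bivalent. FOXA1 and the GATA factors are pioneer factors, which can bind closed chromatin and open it. HOXB13 is a posterior homeobox factor and partner of the androgen receptor, and GRHL2 is a grainyhead factor that maintains epithelial cells.

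The line carried the marks of luminal prostate cells. KLK2, KLK3, TMPRSS2, KRT8 and KRT18, all 5 luminal markers, had an H3K4me3 peak within 1 kb of a start in 6 of 6 libraries and no H3K27me3 peak there. The basal markers TP63, KRT5 and KRT14, the blood markers PTPRC and CD3E and the endothelial marker CDH5 had no H3K4me3 peak there in any library. Of the neuroendocrine markers, CHGA had none, while SYP and ENO2 had one in all 6, and of the fibroblast markers COL1A1 had one in all 6 and COL1A2 and DCN had none. An H3K27me3 peak was there in 6 libraries at COL1A1 and COL1A2, 5 at CHGA, 3 at ENO2 and PTPRC, 2 at DCN and 1 at KRT5. SYP, TP63, KRT14, CDH5 and CD3E had no H3K27me3 peak there. PECAM1, also listed as endothelial, was not among the genes placed.

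The promoters of 3 of the genes are shown because they carried different marks. The sequences are the 250 bases before an annotated start, from RefSeq on GRCh38.p14, read 5′ to 3′ on the gene's strand with each CpG in capitals. FOXA1 lies on the minus strand (chr14:37595250-37595499), GATA2 on the minus strand with a distal (chr3:128493202-128493451) and a proximal start (chr3:128488531-128488780), and GATA3 on the plus strand (chr10:8054438-8054687).
FOXA1: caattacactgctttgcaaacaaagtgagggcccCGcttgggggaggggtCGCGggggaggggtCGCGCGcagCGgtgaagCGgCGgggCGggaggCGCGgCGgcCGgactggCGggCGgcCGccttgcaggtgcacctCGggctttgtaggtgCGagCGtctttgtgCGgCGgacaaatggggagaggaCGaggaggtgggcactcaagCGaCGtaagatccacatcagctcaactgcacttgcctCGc
GATA2 distal: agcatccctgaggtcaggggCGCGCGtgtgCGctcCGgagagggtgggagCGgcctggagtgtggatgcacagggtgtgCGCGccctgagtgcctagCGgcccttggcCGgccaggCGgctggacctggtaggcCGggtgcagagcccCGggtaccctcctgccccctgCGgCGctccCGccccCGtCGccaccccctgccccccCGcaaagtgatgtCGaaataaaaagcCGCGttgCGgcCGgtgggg
GATA2 proximal: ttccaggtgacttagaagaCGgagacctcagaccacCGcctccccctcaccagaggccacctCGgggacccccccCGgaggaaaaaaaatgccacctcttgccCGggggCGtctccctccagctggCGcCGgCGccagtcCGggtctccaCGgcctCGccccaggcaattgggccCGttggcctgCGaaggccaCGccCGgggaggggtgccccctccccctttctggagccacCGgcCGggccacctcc
GATA3: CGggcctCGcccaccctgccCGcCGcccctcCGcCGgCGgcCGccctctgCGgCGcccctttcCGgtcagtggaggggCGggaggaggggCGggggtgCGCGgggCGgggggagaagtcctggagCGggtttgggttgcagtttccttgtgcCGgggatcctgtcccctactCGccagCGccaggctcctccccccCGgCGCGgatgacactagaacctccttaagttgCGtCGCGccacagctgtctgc
The FOXA1 stretch held 26 CpG and had H3K4me3 in 6 of 6 libraries and no H3K27me3. The proximal GATA2 stretch, with 18 CpG, had H3K4me3 in 6 of 6, and the distal one, with 24 CpG, in 0 of 6. The GATA3 stretch held 26 CpG and had both marks in 6 of 6. Counted with the next 50 bases, these promoters had 34, 22, 29 and 29 CpG and a C+G content of 69.3%, 71.3%, 72.3% and 69.3% in that order, against medians of 14 CpG and 58.7% over 35116 promoters of that length. At the other 5 GATA3 starts the promoters had 16, 18, 16, 36 and 5 CpG from the outermost to the innermost, with H3K4me3 in 0, 1, 0, 3 and 0 of 6 libraries. The 3 libraries with it at the start chr10:8053641 were the V16D/CTL ones, and the 1 at chr10:8049854 was V16D/H19 replicate 2. How often promoters of all genes split by group like this is not given. Short words of the factors' binding sites were searched on both strands. The GATA core GATAA was in none of the 4 promoters, in that of the innermost GATA3 start and in 22.7% of all promoters. The forkhead word TGTTTAC was in none of the 4 and in 3.42% of all, and the steroid receptor half-site AGAACA in none and in 14.8% of all.

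**Figure D1:**
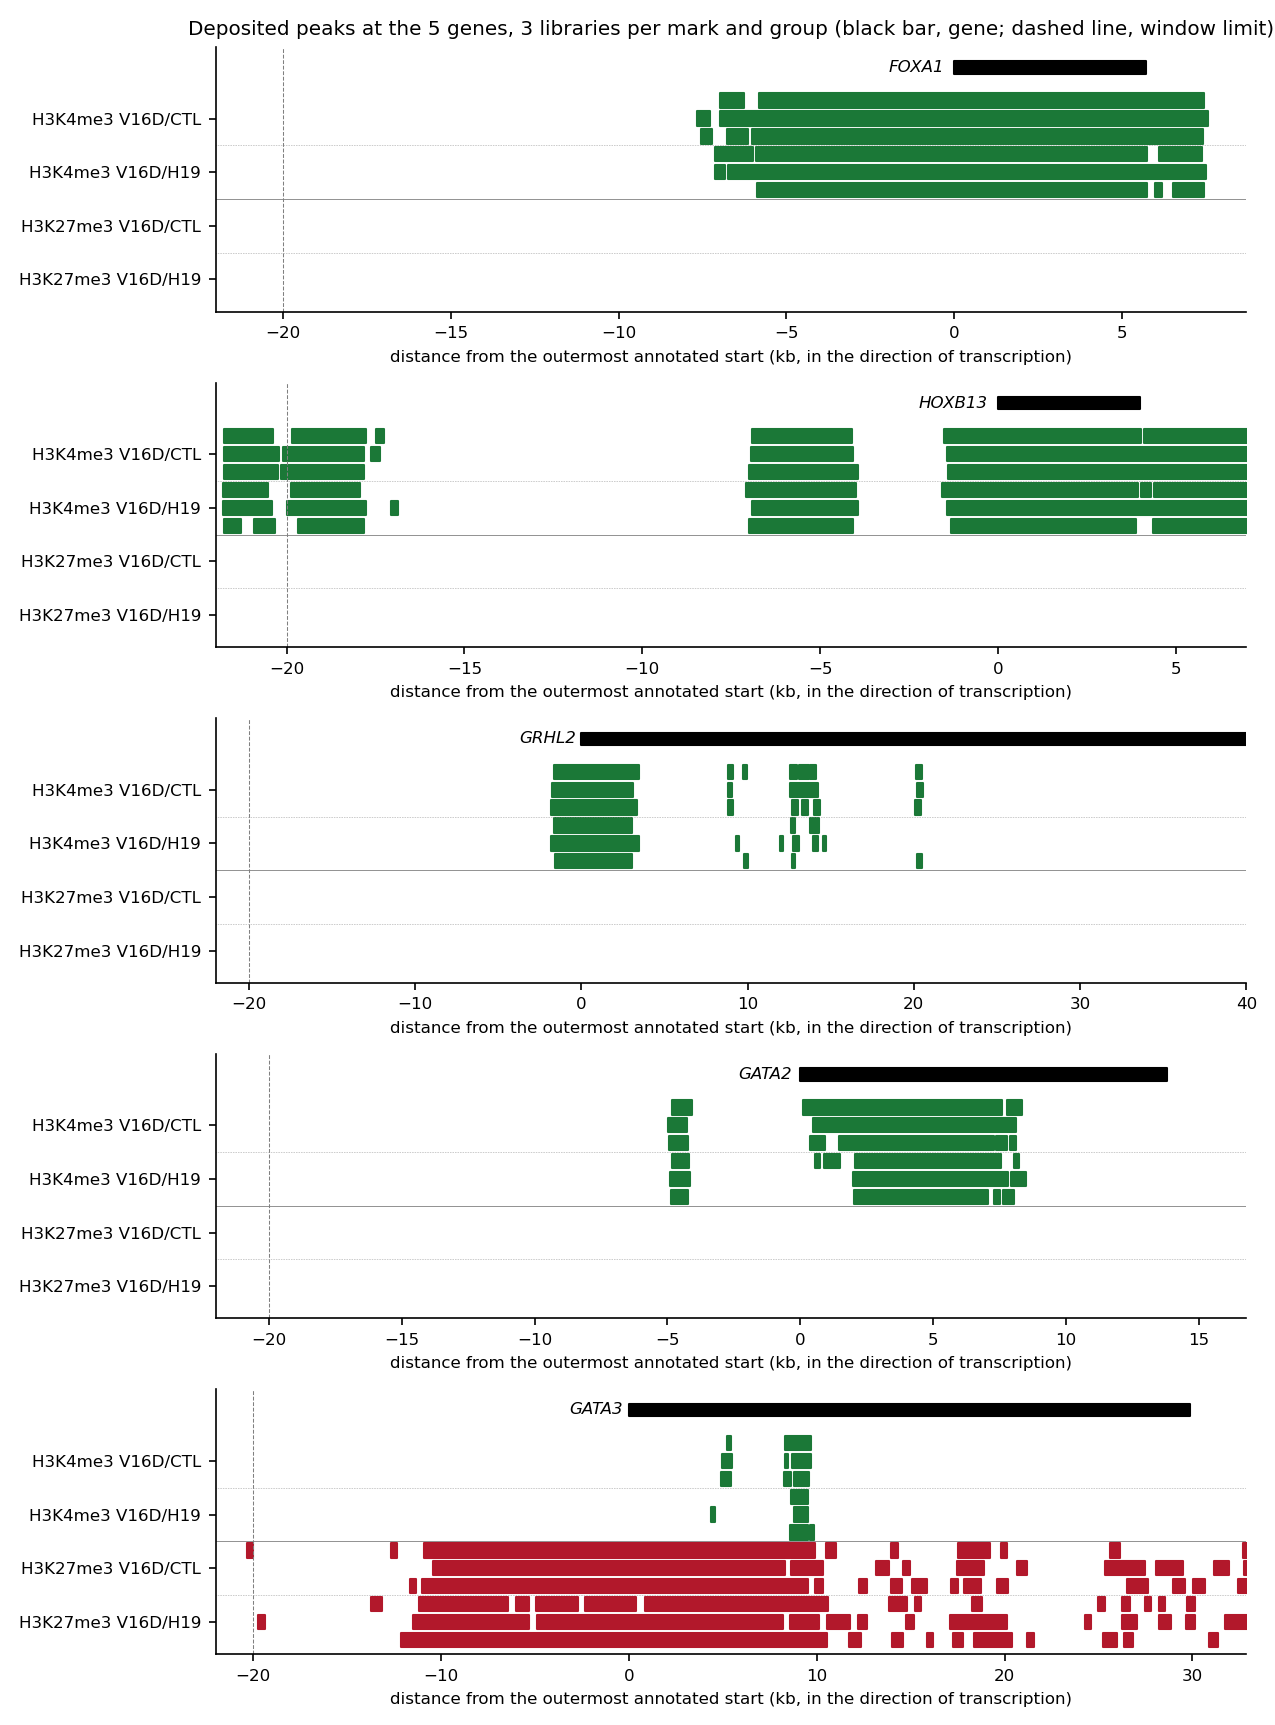
Each panel plots the peaks of 12 libraries (3 rows per mark and group, green for H3K4me3, red for H3K27me3) by distance in kb from the outermost start of the gene drawn as a black bar. H3K27me3 lay at GATA3 and in no row of FOXA1, HOXB13, GRHL2 or GATA2. The GRHL2 panel ends at 40 kb, and H3K4me3 peaks of single V16D/H19 libraries at 51.7 and 86.1 kb are outside it.

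The 5 genes fell into a group of 4 with H3K4me3 alone and GATA3 with both marks. All 5 had an H3K4me3 peak within 1 kb of a start in every library. GATA3 alone had H3K27me3 there, also in every library, and in the windows of the other 4 no H3K27me3 list held a peak. Over all 19675 genes, 55.7% had H3K4me3 in all 6 libraries and H3K27me3 in none, and 3.76% had both marks in all 6.

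FOXA1, a forkhead pioneer factor, had among the widest H3K4me3 peaks of the genome in these cells (chr14:37589552-37595249, minus strand). Its widest peak spanned 13261, 14514 and 13420 bases in V16D/CTL replicates 1, 2 and 3 and 11642, 14237 and 11620 bases in V16D/H19. These peaks ranked between 2 and 6 by width in their lists. They ran through the whole gene and into TTC6, whose annotated 5′ end is head to head with FOXA1, so the peak cannot be assigned to a single gene. The bases under H3K4me3 peaks in the FOXA1 window (its covered length) were 12257, 13038 and 12666 in V16D/CTL against 12706, 12738 and 11574 in V16D/H19. The groups overlapped, with means of 12654 ± 391 and 12339 ± 663 bases (SD, n = 3 each; two-sided exact permutation test, p = 0.7).

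HOXB13, whose protein works with the androgen receptor in prostate cells, was likewise inside a domain wider than the gene (chr17:48724763-48728750, minus strand). The merged site, chr17:48717774-48730319, also holds PRAC1, PRAC2 and MIR3185. Its widest peak had 5529, 12416 and 12305 bases in V16D/CTL against 5500, 12102 and 5208 in V16D/H19. The jump in these values was a gap: 3 libraries had the domain as 1 peak, and in V16D/CTL replicate 1 and V16D/H19 replicates 1 and 3 it was split into parts that summed to 11944, 12099 and 11305 bases. Covered length in the HOXB13 window was 10612, 10723 and 10618 bases in V16D/CTL against 10540, 10873 and 9976 in V16D/H19. The groups overlapped, at 10651 ± 62.4 and 10463 ± 453 bases (SD, n = 3 each; exact permutation test, p = 0.7). A second site lay 3.9 to 7.1 kb upstream, over the non-coding gene LOC105371811, and another from 17.8 kb upstream across the window's limit.

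GATA2, a GATA pioneer factor found at androgen receptor sites, had its widest peak at 7456, 7647 and 5820 bases in V16D/CTL against 5478, 5838 and 5061 in V16D/H19 (gene chr3:128479422-128493201, minus strand). GRHL2 had its widest peak over its start, at 5092, 4932 and 5172 bases in V16D/CTL against 4727, 5284 and 4630 in V16D/H19 (gene chr8:101492439-101681200, plus strand). Both were wide, ranked 18 to 91 and 105 to 179 in their lists. GATA3, in contrast, had H3K4me3 peaks of 752 to 1373 bases at most, and 47.9 to 64.3% of each list was at least as wide.

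By mean width of the widest promoter peak over the 6 libraries, FOXA1 (13116 bases) ranked 4 among 12595 genes that had such a peak in every library, a rank it shared with TTC6 through the same peak. HOXB13 (8843 bases) ranked 12, GATA2 (6217) 44, GRHL2 (4973) 139 and GATA3 (962) 11608. The median over these genes was 2082 bases. Thus 4 of the 5 lay among the 1.10% of genes with the widest promoter peaks and GATA3 below the median.

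**Figure D2:**
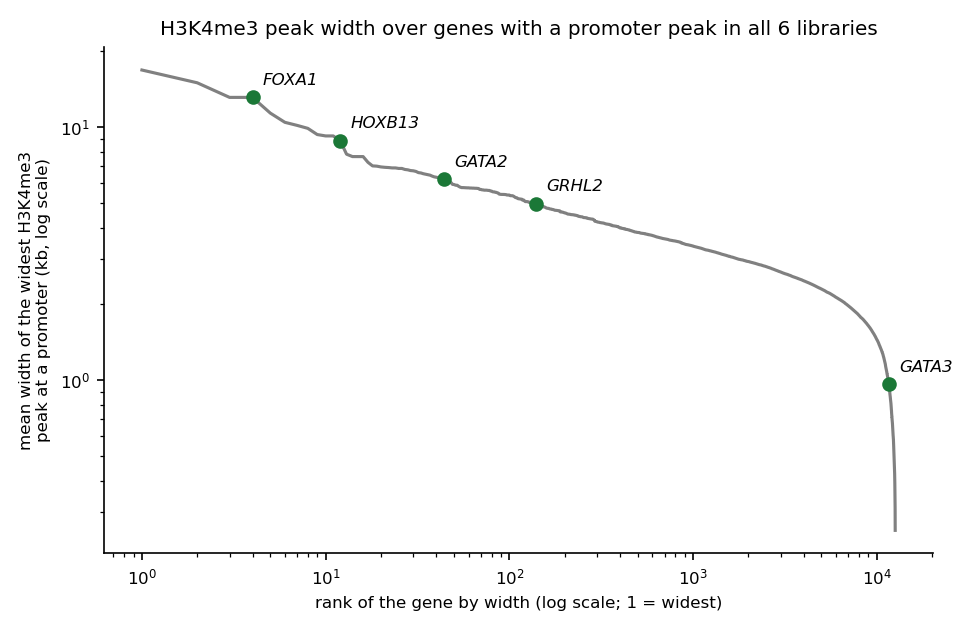
The mean width of the widest H3K4me3 promoter peak (kb, log scale) is plotted against its rank (log scale) for the 12595 genes with a promoter peak in all 6 libraries (grey line), with the 5 genes as green points. FOXA1, HOXB13, GATA2 and GRHL2 sit at ranks 4, 12, 44 and 139 and GATA3 at 11608.

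The order by height was not the order by width. The highest fold over input, a linear ratio, was 45.2 to 65.9 at FOXA1, 45.1 to 72.3 at HOXB13, 31.3 to 93.8 at GATA2, 29.2 to 46.0 at GRHL2 and 6.57 to 12.6 at GATA3 over the 6 libraries. In their lists, 10.3 to 31.3% of peaks reached at least the fold of FOXA1 and 4.23 to 27.7% that of HOXB13. GATA3 was low in both measures, with 63.6 to 78.9% of peaks at least as high.

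GATA3 encodes a zinc finger factor of luminal breast and T cells, and its gene (chr10:8045333-8075198, plus strand) was the only one of the 5 under a Polycomb mark. The widest H3K27me3 peak had 20792, 18693 and 20549 bases in V16D/CTL against 9774, 13117 and 22686 in V16D/H19, and ranked between 1 and 14 by width in lists of 55060 peaks or more. H3K27me3 covered 24618, 26908 and 26747 bases of the window in V16D/CTL against 24121, 28341 and 28417 in V16D/H19. These groups overlapped, at 26091 ± 1278 and 26960 ± 2459 bases (SD, n = 3 each; exact permutation test, p = 0.6), in a mark for which 19.4% of 7068 gene windows had groups that did not overlap. In V16D/H19 replicates 1 and 2, whose widest peaks were smaller, the same stretch was called in more pieces.

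The H3K4me3 of GATA3 lay inside that domain. Of its H3K4me3 bases, 100, 88.5 and 97.3% were under H3K27me3 of the same replicate in V16D/CTL and 100% in each V16D/H19 replicate. In these bulk libraries both marks on the same chromatin and each mark in other cells cannot be told apart, nor can fewer marked cells and less of a mark per cell.

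Covered H3K4me3 length was lower in V16D/H19 at GATA3, GATA2 and GRHL2, without overlap between the groups. At GATA3 it was 1578, 1786 and 1727 bases in V16D/CTL against 885, 958 and 1140 in V16D/H19, with means of 1697 ± 107 and 994 ± 131 (SD, n = 3 each). At GATA2 it was 8757, 8371 and 7783 bases in V16D/CTL against 7160, 7159 and 6320 in V16D/H19, with means of 8304 ± 490 and 6880 ± 485. At GRHL2 it was 7313, 7256 and 6897 bases in V16D/CTL against 5815, 6793 and 5360 in V16D/H19, with means of 7155 ± 226 and 5989 ± 732.
Every V16D/H19 library was below every V16D/CTL library at these 3 genes, and at FOXA1 and HOXB13 the groups overlapped. Each of the 3 gave p = 0.1 in the two-sided exact permutation test, the smallest that 3 against 3 libraries allow, so none could pass 0.05, and the Benjamini-Hochberg adjusted value over 7 such tests was 0.175. Among 15183 gene windows with H3K4me3, 5.76% had groups that did not overlap with V16D/H19 lower. The bases of GATA3 under both marks were 1578, 1581 and 1680 in V16D/CTL against 885, 958 and 1140 in V16D/H19 (exact permutation test, p = 0.1, adjusted p = 0.175). In V16D/H19 these are the H3K4me3 bases themselves, so this comparison is not separate from that of H3K4me3. The groups did not overlap, and 9.24% of 2317 windows with both marks were like that with V16D/H19 lower.

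**Figure D3:**
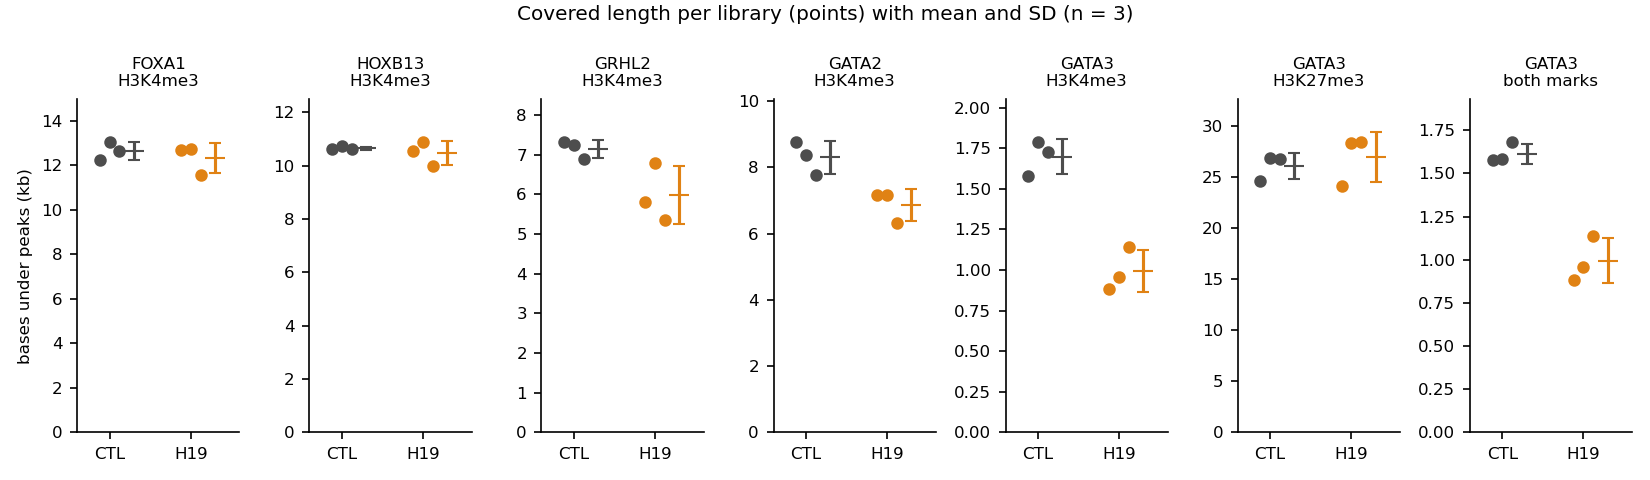
Bases under peaks (kb, from 0, a scale per panel) are shown for each library as points, with the mean and SD (n = 3) beside them, for H3K4me3 at the 5 genes and for H3K27me3 and both marks at GATA3. The V16D/H19 points lie below all V16D/CTL points for H3K4me3 at GRHL2, GATA2 and GATA3 and for both marks at GATA3, and overlap them in the other panels.

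At GATA2 the bases that differed were at the edge of the domain next to the distal start. The main peak ended 114, 473 and 1452 bases inside the gene from that start in V16D/CTL against 2060, 1992 and 2010 bases from it in V16D/H19. Within 1 kb of the distal start, H3K4me3 peaks covered 887, 528 and 578 bases in V16D/CTL against 313, 0 and 0 in V16D/H19. All V16D/H19 edges were thus farther from the distal start than any V16D/CTL edge, and the proximal start stayed covered in 6 of 6 libraries. The antisense gene GATA2-AS1 overlaps this edge, and peaks carry no strand. A separate narrow site 4.1 to 5.0 kb upstream of the distal start, also within GATA2-AS1, had 751, 724 and 726 bases in V16D/CTL against 676, 777 and 623 in V16D/H19.

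At GRHL2 most of the difference lay beyond the promoter peak, in the gene body, and the widths of the promoter peak overlapped between the groups. Peaks beyond the promoter peak covered 2221, 2324 and 1725 bases in V16D/CTL against 1088, 1509 and 730 in V16D/H19 (2090 ± 320 and 1109 ± 390, SD, n = 3 each). These bases are a part of the covered length that already separated the groups, so they are not separate evidence. The site 12.5 to 14.3 kb from the start (chr8:101504965-101506770), which the authors' annotation puts in the first intron, had 1360, 1667 and 1036 bases in V16D/CTL against 754, 617 and 210 in V16D/H19. Its highest fold over input was 7.42, 8.5 and 5.25 in V16D/CTL against 3.54, 4.95 and 4.56 in V16D/H19.
Neither measure overlapped between the groups, against 6.24% of 15811 sites by width and 4.63% by fold that did so with V16D/H19 lower. A smaller region 8.8 to 9.1 kb from the start had 295, 270 and 323 bases in V16D/CTL and no peak in V16D/H19. Near it, V16D/H19 replicate 2 had a peak of 205 bases at 9.3 to 9.5 kb, and a region at 9.7 to 10.0 kb had 205 bases in V16D/CTL replicate 1 and 234 in V16D/H19 replicate 3. V16D/H19 replicate 2 alone had peaks of 215 bases at 11.9 to 12.1 kb and 205 bases at 14.5 to 14.7 kb. All these peaks are within the covered lengths given for the gene body. GRHL2 lies on the long arm of chromosome 8, where 142 of 152 H3K4me3 sites beyond 45 Mb in the authors' table were lower in V16D/H19, against 1412 of 1857 in the whole table. The part of this in the GRHL2 values was not tested.

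At GATA3 the promoter site that all 6 libraries shared and a nearby H3K4me3 region covered fewer bases in V16D/H19. Another small region had a peak in a single V16D/H19 library. The promoter site (chr10:8053586-8055161) had 1373, 1229 and 1198 bases in V16D/CTL against 885, 752 and 1140 in V16D/H19. A region 4.9 to 5.5 kb inside the gene (chr10:8050229-8050837), over an end of the neighbouring non-coding gene GATA3-AS1, had 205, 557 and 529 bases in V16D/CTL and no peak in V16D/H19. That other region, 4.4 to 4.6 kb inside the gene, had a peak of 206 bases in V16D/H19 replicate 2 (fold over input 4.54) and none in the other 5 libraries, and the authors' table holds both regions in a single site. A peak in all 3 V16D/CTL and no V16D/H19 library, as here and at the GRHL2 region, was found at 0.41% of 20708 H3K4me3 regions that at least 2 libraries shared. Of the 6 annotated GATA3 starts, 5 had H3K27me3 over the promoter in 6 of 6 libraries and the innermost had it in 3. The start at chr10:8049854 is within 1 kb of both small H3K4me3 regions, and the peak of 206 bases lies over it.

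A model over all sites with a peak in every library (limma on log2 fold over input, median-centred) called no site in either mark. None of 15811 H3K4me3 sites (0%) and none of 10934 H3K27me3 sites (0%) passed an adjusted p of 0.05, while 1049 and 908 had an unadjusted p under 0.05. The 5 genes had 9 tested H3K4me3 and 4 tested H3K27me3 sites, of which 1 and 0 had an unadjusted p under 0.05. The V16D/H19 minus V16D/CTL difference in log2 fold at the promoter was 0.21 ± 0.27 (SE) at FOXA1, 0.26 ± 0.27 at HOXB13, 0.28 ± 0.30 at GRHL2, 0.54 ± 0.28 at GATA2 and -0.39 ± 0.33 at GATA3, with limma adjusted p between 0.764 and 0.922. The 4 wide promoters thus had positive and GATA3 a negative estimate, none past the threshold. Leaving out each library in turn kept these signs but moved the sizes, from 0.13 (without V16D/CTL replicate 1) to 0.31 at FOXA1, 0.16 (without V16D/H19 replicate 1) to 0.43 (without V16D/H19 replicate 3) at HOXB13 and 0.18 (without V16D/H19 replicate 1) to 0.44 (without V16D/H19 replicate 2) at GRHL2. At GATA2 the range was 0.20 (without V16D/CTL replicate 3) to 0.80 and at GATA3 -0.59 (without V16D/H19 replicate 2) to -0.21 (without V16D/H19 replicate 3). The median over the 5 promoters was 0.26, beside -0.02 over all sites. Estimates over all sites ran from -0.59 to 0.57 between the 5th and 95th percentiles, and 48.0% were positive.

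Behind these estimates the folds at GATA2 were 78.5, 58.3 and 31.3 in V16D/CTL against 68.2, 93.8 and 76.4 in V16D/H19. At HOXB13 they were 52.6, 53.1 and 45.1 against 70.1, 72.3 and 47.6, and at FOXA1 45.3, 55.1 and 45.2 against 55.9, 65.9 and 52.7. The groups overlapped at all 3, at GATA2 because V16D/CTL replicate 1 exceeded all but one V16D/H19 library. At the GRHL2 intron site the difference was -0.73 ± 0.33 (SE, limma adjusted p = 0.722). At the HOXB13 site from 17.8 kb upstream it was -0.58 ± 0.34 (adjusted p = 0.793).

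The same model on the log2 width of a site was chosen after seeing the data. It called 50 H3K4me3 sites (0.316%), 30 wider and 20 narrower in V16D/H19. None of the 9 at these genes was called. Of these 9, 3 had an unadjusted p under 0.05, beside 1655 of all 15811 sites. GATA2 came nearest, with widths of 8006, 7647 and 7057 bases in V16D/CTL against 6484, 6382 and 5697 in V16D/H19. Its log2 difference was -0.30 ± 0.05 (SE), and the limma adjusted p of 0.0642 missed 0.05. The GRHL2 intron site differed by -1.53 ± 0.39 (adjusted p = 0.169) and the GATA3 promoter by -0.48 ± 0.16 (adjusted p = 0.317). FOXA1, HOXB13 and GRHL2 promoters differed by -0.05 ± 0.06, -0.05 ± 0.05 and -0.06 ± 0.05, with adjusted p from 0.725 to 0.836. All 5 promoter estimates were below 0, those of FOXA1, HOXB13 and GRHL2 by about their SE. Over all sites the median was 0.00 and 50.2% of estimates were above 0.

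**Figure D4:**
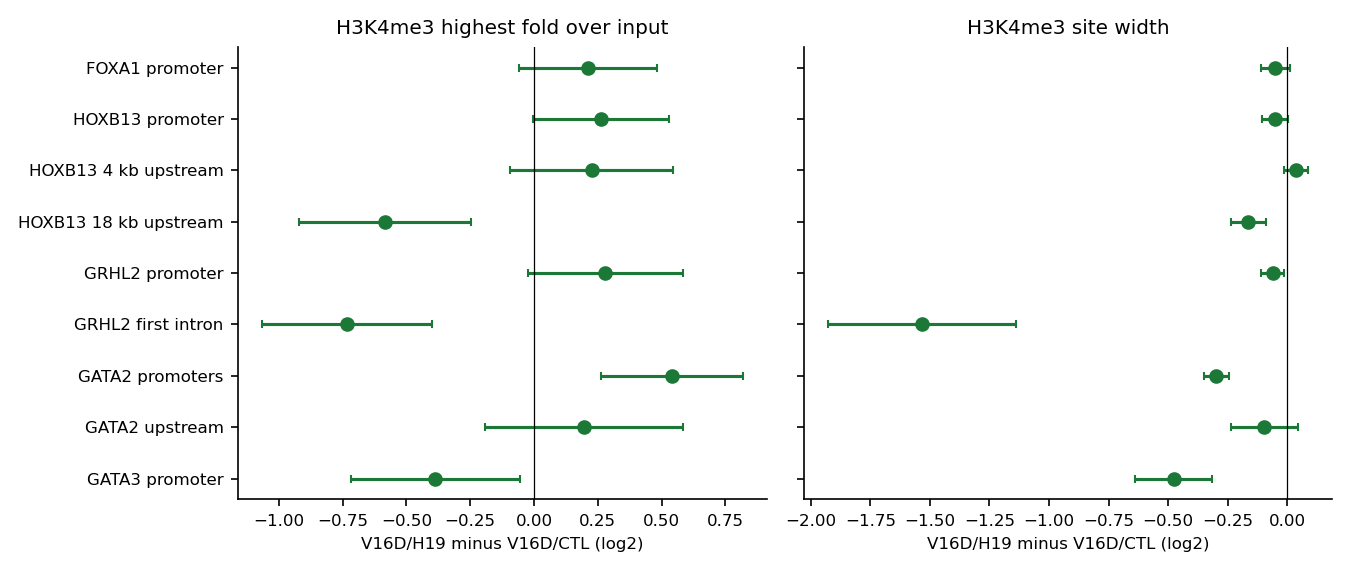
Points give the V16D/H19 minus V16D/CTL difference (log2, 3 libraries per group) of the 9 tested H3K4me3 sites, in highest fold over input on the left and in site width on the right, with bars of 1 SE from limma. The GATA2 promoter site is 0.54 in fold and -0.30 in width, and the GRHL2 intron site is -0.73 and -1.53, none past an adjusted p of 0.05.

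The main H3K27me3 site of GATA3 (chr10:8033215-8058013) had a width-weighted mean fold of 5.33, 5.25 and 5.39 in V16D/CTL against 4.56, 4.77 and 4.86 in V16D/H19. The groups did not overlap, which held with V16D/H19 lower for 15.4% of 10934 H3K27me3 sites. After median centring the difference was -0.12 ± 0.09 (SE, limma adjusted p = 0.744). The 3 smaller sites toward the end of the gene differed by -0.12 to -0.02. In the H3K27me3 lists as a whole, 9.15 to 11.1% of peaks passed a −log10 q of 3 in V16D/CTL and 5.37 to 6.46% in V16D/H19.

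The authors' tables of differential sites were made from read counts rather than peaks. The paper defines such sites by an FDR under 0.05, and the tables held 1857 H3K4me3 and 1140 H3K27me3 sites. Under the name of a member they held 3 H3K4me3 sites and 1 H3K27me3 site. The first was the FOXA1 domain, with an authors' mean log2 concentration of 11.72 in V16D/CTL and 11.38 in V16D/H19. GRHL2 had its promoter, at 10.79 and 10.51, and its first intron site, at 6.38 and 5.26. All 3 were lower in V16D/H19, as were 1412 of the 1857 listed H3K4me3 sites. In the same windows but without a member's name stood a site over the GATA2 promoters, at 11.41 and 11.26, and a GATA3-AS1 site over both small H3K4me3 regions 4.4 to 5.5 kb inside GATA3, at 4.77 and 3.45. HOXB13 had none. Over all H3K4me3 regions shared by at least 2 libraries, 9.34% overlapped a listed site.

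Concentrations and summit folds thus differed in sign at the promoters of FOXA1, GRHL2 and GATA2, where the authors' mean concentration was lower in V16D/H19 and the fold estimate positive, while at the GRHL2 intron site both were lower. A concentration sums reads over a whole site relative to each library's normalization, and the fold is that of the highest peak over input. The listed H3K27me3 site named for GATA3 lay 58 kb upstream of a GATA3 transcript (chr10:7981141-7987333), in an intron of another gene and outside the window. Its authors' mean concentration was 4.90 in V16D/CTL and 6.10 in V16D/H19. Peaks there covered 776, 293 and 0 bases in V16D/CTL against 831, 1810 and 768 in V16D/H19, which overlapped. The authors listed this site as differing in these same libraries, so the peak lengths are no independent test of it. For that mark 3.15% of regions shared by at least 2 libraries overlapped a listed site.

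The families of the 5 genes carried unlike marks. Among 11 paralogues, FOXA2 had H3K27me3 and no H3K4me3 at its promoter in 6 of 6 libraries, and FOXA3 had H3K4me3 in 6 and H3K27me3 in 3. GRHL1, GRHL3, GATA6 and HOXA13 had H3K4me3 in 6 and H3K27me3 in 0, as had GRHL2, GATA2 and HOXB13. HOXD13 had both in all 6, as had GATA3. GATA1 and GATA4, the blood and heart members, had no H3K4me3, and GATA5 had H3K27me3 in 6 and H3K4me3 in 2. No paralogue promoter site was called by limma in either mark (1 of each mark had an unadjusted p under 0.05), and of 8 tested H3K4me3 promoter sites 3 had a positive and 5 a negative estimate, with a median of -0.06.

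**Figure D5:**
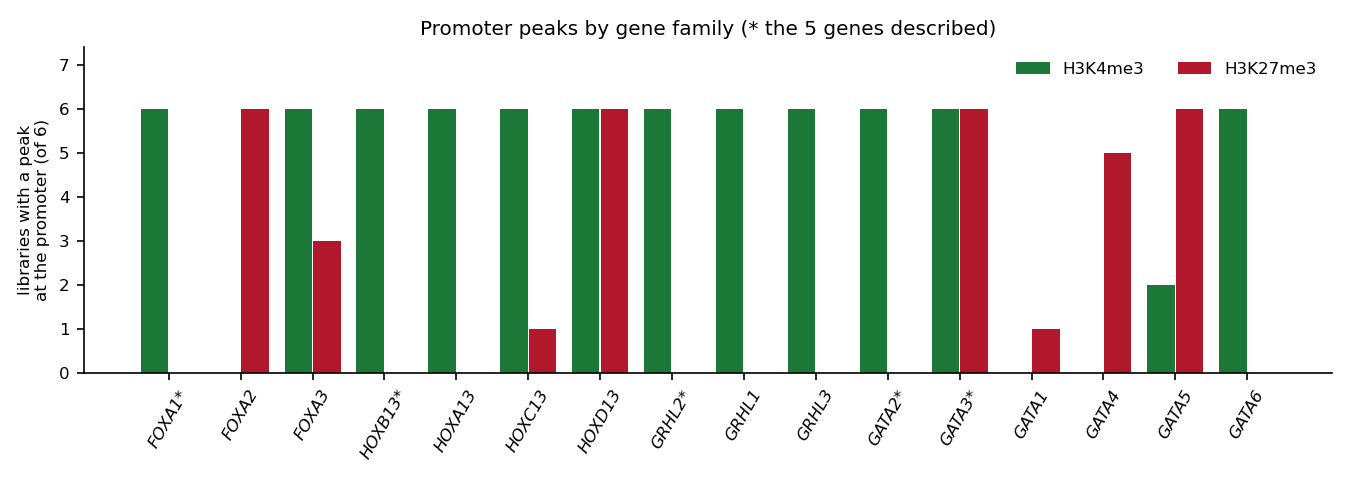
Bars give the number of libraries, of 6 per mark, with an H3K4me3 (green) or H3K27me3 (red) peak within 1 kb of a start, for the 5 genes (marked *) and 11 paralogues. FOXA1 and FOXA2 are opposite, with H3K4me3 alone and H3K27me3 alone in 6 libraries each, and GATA3 and HOXD13 have 6 of both.

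Of 20 further prostate epithelial factors, 17 had H3K4me3 at the promoter in all 6 libraries, and 14 of them no H3K27me3, among them KLF5, ELF3, SPDEF, SOX9 and MEIS1. ERG and MEIS2 had both marks in all 6, like GATA3. CREB3L1 had no H3K4me3 and H3K27me3 in 5. Of 14 coregulators of the androgen receptor, among them the coactivators NCOA1 and EP300 and the corepressor NCOR1, 13 had H3K4me3 in all 6 and none had H3K27me3 in any, and NCOA2 had H3K4me3 in 1. NR3C1, the glucocorticoid receptor, had H3K27me3 in 6 libraries and H3K4me3 in 5. No promoter site of either list was called in fold by limma (2 epithelial H3K27me3 sites had an unadjusted p under 0.05 and no H3K4me3 site had), with median log2 fold differences of -0.09 over 18 epithelial and -0.04 over 13 coregulator H3K4me3 promoter sites, beside 0.26 over the 5 members.

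The genes most like each member were found by the distance between their shares of the window under each mark over 12 libraries. GATA2 was nearest to ID2, an inhibitor of basic helix-loop-helix factors, with 18.6 to 24.4% of the window under H3K4me3 against 18.7 to 25.9%. FOXA1 was nearest to TMEM88 and HOXB13 to LOC124905135, both without H3K27me3. GRHL2, long and covered at 2.57 to 3.50%, was nearest to ORC5. The gene nearest to GATA3 was PRICKLE1, with 49.2 to 63.5% under H3K27me3 and 0% under H3K4me3, at 14.5 percentage points, a larger distance than for any other member.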

How the data were processed

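H3K4me3 and H3K27me3 were measured by chromatin immunoprecipitation sequencing in V16D/CTL and V16D/H19 cells, 3 replicates each, grouped by sample titles. The authors ran MACS2 on every immunoprecipitated library with its matching input, with narrow peaks for H3K4me3 and broad ones for H3K27me3. The deposited lists hold, for each peak, a fold over input (a ratio) and its p-value and q-value as −log10. The authors' tables of differential sites (DiffBind, ChIPseeker) give each group's mean concentration in log2, pooled over replicates, of which only these means and the sites' places were used. Their columns of fold changes, p-values and FDR were not used. The build hg38 (GRCh38) is named in the submitters' processing notes, and versions are not given in the sources used here. Read depth was not used, so no counting interval is given.

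Gene positions and starts came from RefSeq on GRCh38.p14, for 19675 of 20037 protein-coding genes (98.2%). HOXB13 and GRHL2 starts were gene 5′ ends, with the strand by symbol from GENCODE. Within a mark, peaks sharing at least 1 base were merged. Sites with a peak in all 6 libraries were tested with limma 3.58.1 (R 4.3.3) on the log2 of the highest H3K4me3 fold or of the width-weighted mean H3K27me3 fold, median-centred, with trend and Benjamini-Hochberg adjustment over all sites. Covered length was compared with two-sided exact permutation tests. In simulated data, limma recovered 6 of 50 H3K4me3 sites changed by 1 on the log2 fold scale and 39 of 50 changed by 2, of 15811. It recovered 28 of 50 changed by 0.5 in width, and 36 of 50 H3K27me3 sites changed by 0.5 in fold, of 10934.

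The 5 genes and the lists of paralogues, epithelial factors, coregulators and cell type markers were chosen with earlier results of these data known. All 5 genes are named, with genes of the lists by their promoter class and the 2 nearest profiles of a member at most. The genes picked as examples from the lists were chosen after their values were seen. Alternatives were centring, site value, presence, q threshold, window, lists of equal length, replicate block and leaving out each library.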

Additional observations from a re-analysis of the deposited data

How the results depend on the processing

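Peaks report presence past a threshold, so covered length and width depend on the depth of each library, which was not used. H3K4me3 fold calls were 0 in all fits but 2, with 1 call without the trend and 1 with the width-weighted mean as the value of a site, and 0 whichever library was left out. With width in place of fold, chosen after seeing the data, calls were 50 for H3K4me3 and 7 for H3K27me3. H3K27me3 fold calls ranged from 0 to 1 over the left-out libraries. H3K4me3 width calls were 33 without centring, 34 with a replicate block and 20 (without V16D/H19 replicate 1) to 49 over the left-out libraries, with 22 without V16D/H19 replicate 2 and 24 without V16D/CTL replicate 3, and no site of the 5 genes was called in any of these fits.

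Same-numbered replicates did not deviate together in site folds (correlations of -0.001 to 0.026), and whether they were prepared together was not tested. The replicate block left fold calls at 0 in both marks, and in covered length it gave p = 0.25 at GRHL2, GATA2 and GATA3, the smallest a sign-flip permutation of 3 pairs allows. Covered H3K4me3 length at these 3 genes was lower in V16D/H19 under every alternative run, without overlap in the fits with all 6 libraries; over the left-out libraries the differences ranged from -1568 to -851 bases at GRHL2, -1684 to -1144 at GATA2 and -776 to -648 at GATA3. At FOXA1 and HOXB13 they ranged from -514 to 68.3 and from -393 to 55.5 bases, positive only without V16D/H19 replicate 3, and at FOXA1 the difference was 0 in a window from 5 kb upstream, which the domain filled in every library. Among single sites, the log2 fold difference of the upstream GATA2 site ranged from -0.25 (without V16D/CTL replicate 1) to 0.71, that of the GATA3 H3K27me3 site from 17.1 kb into the gene from -0.15 to 0.063, and that of the site from 25 kb was 0.057 with the highest fold as its value; the cause was not tested. Under the stricter q the 3 smaller GATA3 H3K27me3 sites gave no value.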
